A study of Mus musculus with 194 samples.

Results

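The transcripts of 10 genes of the BCL2 family were measured in single mouse lymphocytes whose descent had been followed under the microscope. The 10 genes were taken by their symbols, and not by their values, from 23420 gene names in the expression table. They comprise 3 survival genes (Bcl2, Bcl2l1 and Mcl1), 2 effectors of cell death (Bax and Bak1) and 5 BH3-only genes (Bcl2l11, Bid, Bad, Bbc3 and Pmaip1). Of 194 libraries in the table, values were taken from 97 CD8+ T-cells and 81 L1210 cells. Cells marked as doublets, 4 CD8+ T-cells and 2 L1210 cells, were left out, as were 5 libraries of each cell type with fewer than 1000 genes above 0 TPM. TPM is the abundance of a transcript per length, scaled to the same total in every library, and a gene above 0 TPM is called detected.

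The CD8+ T-cells were primary cells from the spleens of C57BL/6J mice of both sexes and several ages, purified with a CD8a isolation kit. They had been stimulated for 30 h with antibodies against CD3 (5 µg/mL, bound to the plate) and CD28 (2 µg/mL) and were then grown in a microfluidic trap array with 100 U/mL IL-2. L1210 is a lymphocytic leukemia line (ATCC CCL-219, DBA subline 212), and it was grown in the same kind of device with neither antibodies nor IL-2. No engineered change of a gene is recorded for either cell type. Cell type, strain, activation and medium changed together between the groups and cannot be told apart. The descendants of 1 founding cell form a lineage, and sister and cousin labels placed the CD8+ T-cells in 34 lineages (16 with 4 cells, 4 with 3, 7 with 2 and 7 with 1) and the L1210 cells in 26 (14 with 4, 3 with 3, 7 with 2 and 2 with 1). Lineages served as the replicates, and because neither the mouse nor the culture of a cell is labelled, the p values measure the spread between lineages alone.

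Proteins of the BCL2 family control whether the outer membrane of the mitochondrion stays intact. BAX and BAK1 build pores that let cytochrome c escape, the survival proteins BCL2, BCL-XL (from Bcl2l1) and MCL1 hold them in check, and BH3-only proteins answer to stress by occupying the survival proteins or by activating the pore formers directly. In lymphocytes the family decides which cells live after growth factor is withdrawn or an immune response ends, and BIM, the product of Bcl2l11, is a main agent of that removal. Many of these proteins are also regulated after translation, MCL1 by rapid turnover and BAD by phosphorylation, so that transcripts describe only part of the balance.

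The number of genes above 0 TPM was between 2639 and 10905 per CD8+ T-cell (median 6862) and between 1610 and 10454 per L1210 cell (median 8402). Rn45s, a precursor of ribosomal RNA, made up 21.3% ± 8.54 of the TPM of a CD8+ T-cell (SD, n = 97 cells) and 22.3% ± 8.40 of that of an L1210 cell (SD, n = 81 cells). A pair of L1210 libraries stood apart. L1210_8 had 2718 genes and 79.3% Rn45s, and L1210_15 had 1610 genes and 55.5% Rn45s. All 8 T cell markers were higher in CD8+ T-cells, whose summed level of these markers was between 1080 and 6829 TPM against 0 to 130.3 TPM in L1210 cells. All 7 markers of the B lineage were higher in L1210 cells, at 485 to 4863 TPM summed against 0 to 283 TPM, and Vpreb1, Igll1, Ebf1 and Pax5 were at 0 in all 97 CD8+ T-cells. Of 8 markers of other cells in the table, Lyz2 and Ncr1 were at 0 in every CD8+ T-cell, and the sum of the 8 reached 82.8 TPM in CD8+ T-cells and 153 TPM in L1210 cells. The 4 cells of 1 lineage, CD8 lineage 29, went against their label. Their Cd8a lay between 0 and 1.87 TPM and their Cd8b1 at 0, where the other 93 CD8+ T-cells had 70.2 TPM or more of Cd8a, while their Cd3e (408 to 557 TPM) was that of T-cells and their Cd4 was 0. Results that rest on these libraries are given with and without them.

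The 3 members that differed most between the cell types lie on chromosomes 1 and 2, Bcl2 on the minus strand of chr1:106538178-106714274 (GRCm38), Bcl2l1 on the minus strand of chr2:152780668-152831728 and Bcl2l11 on the plus strand of chr2:128126038-128162547. To show what stands before their start sites, the 250 bases upstream are given 5′ to 3′ on the strand of the gene, from RefSeq promoter windows of GRCm38.p6, at chr1:106714291-106714540, chr2:152831729-152831978 and chr2:128125788-128126037. Where several windows exist for a gene, the one nearest to the annotated start of the gene was taken. Capitals mark GC boxes, GGGCGG or its reverse complement CCGCCC.
Bcl2: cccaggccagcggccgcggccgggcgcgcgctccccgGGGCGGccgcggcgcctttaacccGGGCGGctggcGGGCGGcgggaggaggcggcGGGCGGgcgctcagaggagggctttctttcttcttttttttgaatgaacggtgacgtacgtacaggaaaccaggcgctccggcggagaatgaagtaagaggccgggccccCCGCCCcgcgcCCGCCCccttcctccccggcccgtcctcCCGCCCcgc
Bcl2l1: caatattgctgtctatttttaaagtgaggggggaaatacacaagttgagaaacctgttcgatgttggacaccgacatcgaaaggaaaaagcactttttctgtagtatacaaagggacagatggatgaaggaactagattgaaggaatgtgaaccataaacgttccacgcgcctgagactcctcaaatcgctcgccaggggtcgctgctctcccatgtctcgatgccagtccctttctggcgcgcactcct
Bcl2l11: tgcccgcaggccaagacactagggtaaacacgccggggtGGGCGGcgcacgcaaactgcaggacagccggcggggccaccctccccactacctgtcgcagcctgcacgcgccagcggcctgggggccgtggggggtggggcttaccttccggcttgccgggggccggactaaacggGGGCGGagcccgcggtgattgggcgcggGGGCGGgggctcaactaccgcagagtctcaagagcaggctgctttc

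The Bcl2 window held 7 GC boxes and the Bcl2l11 window 3, while none was found in that of Bcl2l1. A GC box on either strand occurred in 32.7% of all 32851 windows of this length. The share of G and C was 74.8% for Bcl2, 72% for Bcl2l11 and 47.6% for Bcl2l1, with a median of 52.4% over all windows. The letters TTCNNNGAA, to which STAT factors bind, were searched on both strands because STAT5 acts downstream of IL-2, and they stood in none of the 3 windows and in 7.02% of all windows. A match is a description of letters and not of a bound site.

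The leading survival gene differed between the cell types. CD8+ T-cells carried Bcl2 and Bcl2l1 together, and L1210 cells carried Bcl2l1 nearly alone and at a much higher level. Bcl2, the founding member of the family, was detected in 96 of 97 CD8+ T-cells, from 0 over a median of 81.5 to 479.7 TPM. In L1210 cells it was detected in 31 of 81 cells, with a median of 0 and a maximum of 34.5 TPM, and 81 of the CD8+ T-cells lay above that maximum. The cell with the maximum was L1210_8, and the next highest had 17.4 TPM. On the scale of log2(TPM + 1), the mean over lineages was 6.08 ± 1.13 in CD8+ T-cells (SD, n = 34) and 0.93 ± 0.93 in L1210 cells (SD, n = 26), a difference of 5.15 ± 0.29 (SE, limma, adjusted p = 2.51e-26). All 34 lineages of CD8+ T-cells lay above the median of L1210 lineages, and 32 lay above every L1210 lineage. Without CD8 lineage 29 the difference was 5.22, and without L1210_8 it was 5.25.

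Bcl2l1, which encodes BCL-XL, went the other way. Its lowest, median and highest values were 0, 57.3 and 368 TPM in CD8+ T-cells and 0, 859.7 and 3176 TPM in L1210 cells, where it was the most abundant member. Of the 81 L1210 cells, 77 exceeded the highest CD8+ T-cell, and the only one at 0 was L1210_15. The lineage means were 5.12 ± 1.83 and 9.62 ± 0.84 (SD), and the difference was -4.50 ± 0.37 on the log2 scale (SE, limma, adjusted p = 8.51e-18). All but 1 of the 26 L1210 lineages, 25 in number, lay above every lineage of CD8+ T-cells. The exception was the lineage that holds L1210_15.

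Mcl1, whose protein is needed for the survival of many lymphocytes, was low in both cell types. It ran from 0 over a median of 7.90 to 55.0 TPM in CD8+ T-cells and from 0 over 14.7 to 62.03 TPM in L1210 cells, and the cells of the types overlapped over nearly the whole range. It was lower in CD8+ T-cells by 0.89 ± 0.25 on the log2 scale (difference -0.89, SE, limma, adjusted p = 0.00126), which is close to the median difference of all 10808 genes tested, -0.65. That median lies below 0 together with the smaller number of genes detected in CD8+ T-cells, and the part of detection in single differences was examined by fitting the number of detected genes beside the cell type. In that fit the median of all genes was -0.22 and Mcl1 differed by -0.50 (adjusted p = 0.0742).

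**Figure D1:**
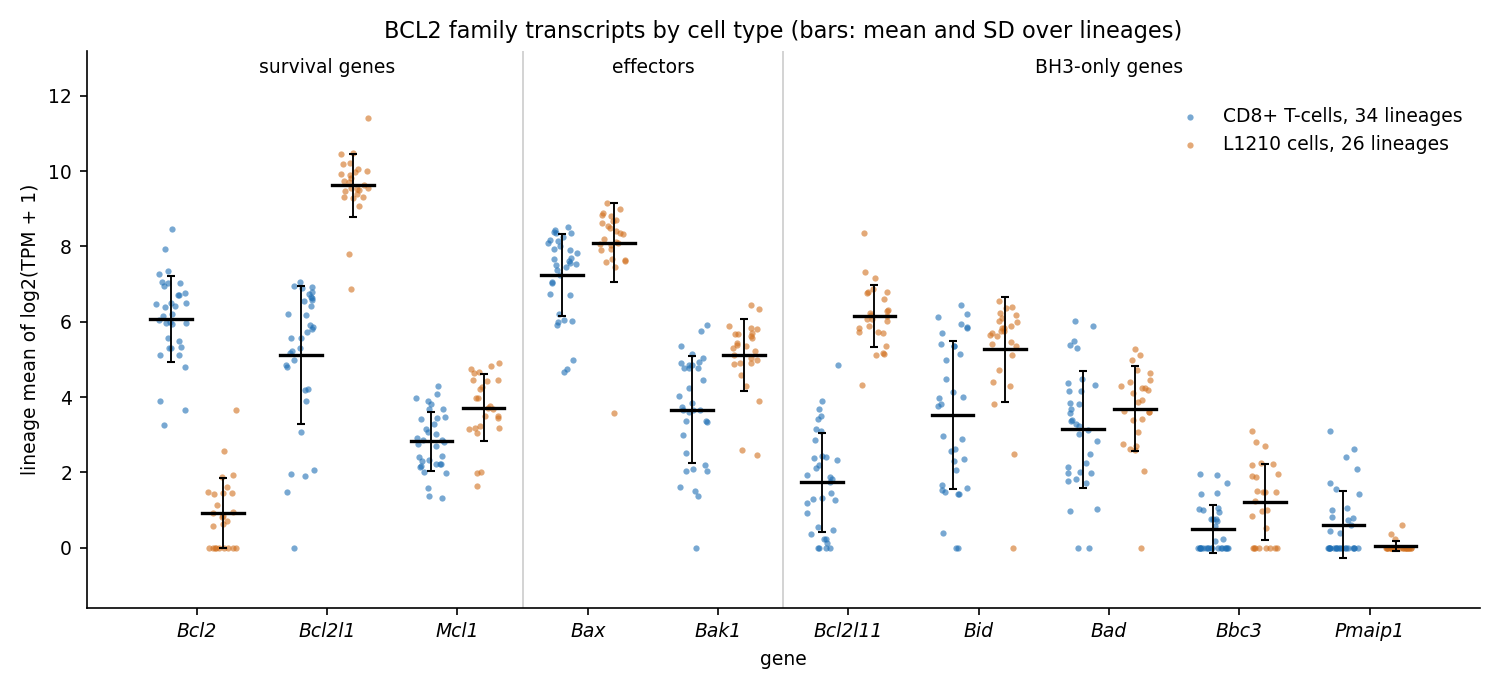
Lineage means of log2(TPM + 1) for the 10 members, with 34 lineages of CD8+ T-cells in blue and 26 of L1210 cells in orange, and with black bars for the mean and SD over lineages. Bcl2 sits at 6.08 for CD8+ T-cells and 0.93 for L1210 cells, while Bcl2l1 (5.12 and 9.62) and Bcl2l11 (1.74 and 6.15) lie the other way.

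Both effectors were somewhat higher in L1210 cells. Of the CD8+ T-cells, 94 had Bax and 82 had Bak1 above 0 TPM, against 80 and 77 L1210 cells. Bax, which moves to the mitochondrion when activated, ran from 0 over a median of 172 to 1003 TPM in CD8+ T-cells, where it was the most abundant member, and from 0 over 292 to 656 TPM in L1210 cells. The difference was -0.87 ± 0.27 on the log2 scale (SE, limma, adjusted p = 0.00432), and it was -0.46 (adjusted p = 0.16) with the number of detected genes in the fit. Bak1, which resides in the mitochondrial membrane, had medians of 17.4 and 39.3 TPM and maxima of 106.3 and 131 TPM, and differed by -1.46 ± 0.32 (SE, limma, adjusted p = 9.01e-05). With the number of detected genes in the fit it differed by -0.76 (adjusted p = 0.0273). Bax exceeded Bak1 in 90 of 97 CD8+ T-cells and in 80 of 81 L1210 cells.

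Among the BH3-only genes Bcl2l11 separated the cell types most. It was detected in 58 of 97 CD8+ T-cells, from 0 over a median of 1.70 to 51.8 TPM. In L1210 cells it was above 0 in all 81 cells, with a minimum of 3.10, a median of 77.2 and a maximum of 325 TPM, and 59 of these cells exceeded every CD8+ T-cell. The lineage means were 1.74 ± 1.32 and 6.15 ± 0.82 (SD), a difference of -4.41 ± 0.30 on the log2 scale (SE, limma, adjusted p = 2.16e-21). In 25 of 26 L1210 lineages the mean was above that of every lineage of CD8+ T-cells, and the lowest L1210 lineage was the one of L1210_8.

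Bid, which caspase-8 cuts to link death receptors to the mitochondrion, was detected in 63 CD8+ T-cells (median 24, maximum 122 TPM) and in 74 L1210 cells (median 51.9, maximum 139.6 TPM). Its difference of -1.74 ± 0.43 on the log2 scale (SE, limma, adjusted p = 0.000402) was -0.71 (adjusted p = 0.118) with the number of detected genes in the fit. Bad, which binds BCL2 and BCL-XL when growth factor signals are low, had medians of 7.47 and 18.8 TPM and maxima of 79.2 and 100.3 TPM. It differed by -0.54 ± 0.36 (SE, limma, adjusted p = 0.18) and did not pass the threshold of 0.05. Bbc3, the p53 target that encodes PUMA, was detected in 20 CD8+ T-cells and 34 L1210 cells, with maxima of 21.2 and 31.7 TPM, and differed by -0.73 ± 0.21 (SE, limma, adjusted p = 0.00228). Pmaip1, which encodes the MCL1 partner NOXA, was detected in 21 CD8+ T-cells, up to 50.4 TPM, and in 3 L1210 cells, up to 1.64 TPM. It exceeded ln(TPM + 1) of 1 in too few cells to enter the test (more than 10% of all cells were required). With no filter on low values it was higher in CD8+ T-cells by 0.56 on the log2 scale (limma, adjusted p = 0.00642).

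Of the 9 members tested, Bcl2 was higher in CD8+ T-cells, a direction in which 12.8% of all genes passed the test. Bcl2l1, Mcl1, Bax, Bak1, Bcl2l11, Bid and Bbc3, 7 members, were higher in L1210 cells, as were 50.5% of all genes, so that most members followed the direction of the table. The median difference of the 9 was -0.89 against -0.65 over all genes, and 3 members stood far from both. Counted from the largest difference towards CD8+ T-cells, Bcl2 was number 54 of 10808 genes. Counted from the other end, Bcl2l1 was number 116 and Bcl2l11 number 120. These 3 passed the test in all 15 alternative fits, over which Bcl2 differed by 2.79 to 7.27, Bcl2l1 by -4.90 to -3.61 and Bcl2l11 by -5.90 to -2.53 on the log2 scale. The ends of these ranges came from other pseudocounts, except that the smallest difference of Bcl2l1, -3.61, came from the fit with the number of detected genes. For no member did the lineage means of the cell types separate without any overlap, as they did in 0.564% of genes in favour of CD8+ T-cells and in 0.925% in favour of L1210 cells.

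**Figure D2:**
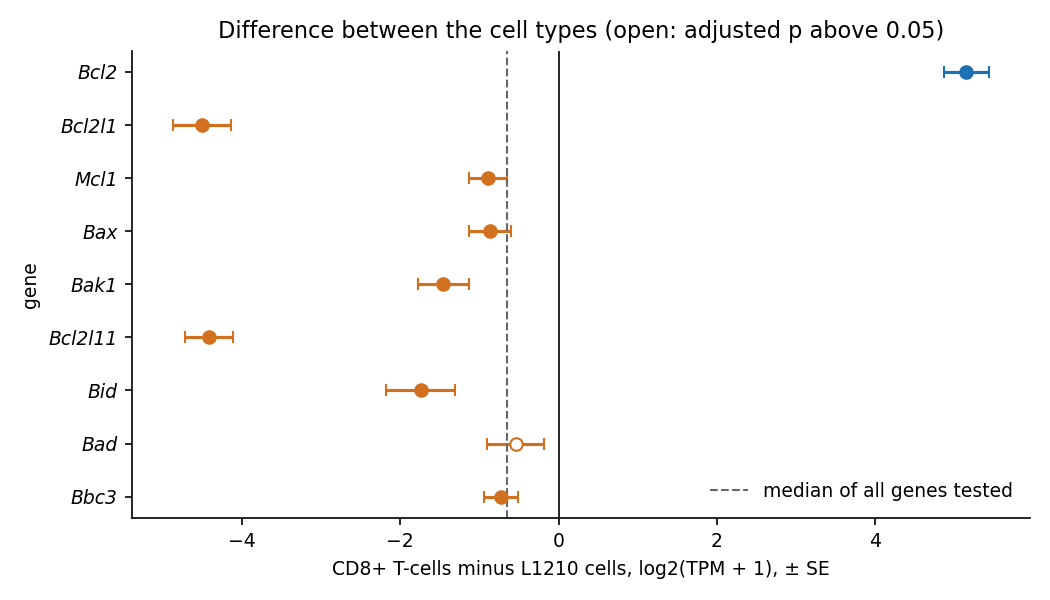
Difference between CD8+ T-cells and L1210 cells in the mean of log2(TPM + 1) over lineages, with SE, for the 9 members tested. Filled points passed an adjusted p of 0.05, and the dashed line is the median of all 10808 genes, -0.65. Bcl2 at 5.15, Bcl2l1 at -4.50 and Bcl2l11 at -4.41 lie far from the line, and the other 6 lie between -1.74 and -0.54.

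Within 1 cell, the order of the members also differed. Bcl2 exceeded Bcl2l1 in 61 of 97 CD8+ T-cells and in 0 of 81 L1210 cells, and both were detected in 85 CD8+ T-cells and 31 L1210 cells. The leading survival gene was Bcl2 in 60 CD8+ T-cells, Bcl2l1 in 36 and Mcl1 in 1, whereas Bcl2l1 led in 80 of the 81 L1210 cells. Among BH3-only genes, Bid led in 55 CD8+ T-cells and Bad in 20. Bcl2l11 led in fewer than 18. The count of 18 includes cells such as CD8_1 and CD8_34, in which every BH3-only gene was at 0 TPM and none led. In L1210 cells Bcl2l11 led in 55 and Bid in 26. A median of 7 of the 10 members was detected in a CD8+ T-cell and a median of 8 in an L1210 cell.

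The 3 survival genes together had a median of 157 TPM in CD8+ T-cells, with a minimum of 4.24 and a maximum of 502 TPM, and a median of 876 TPM in L1210 cells, from 0 to 3194 TPM. The 7 death genes together had medians of 256 TPM (0 to 1006 TPM) and 513 TPM (10.1 to 924 TPM). Survival transcripts were a median of 35.7% of the summed TPM of these 10 genes in CD8+ T-cells, against 63.9% in L1210 cells. They outnumbered death transcripts in 26 of 97 CD8+ T-cells and in 68 of 81 L1210 cells. They did so in most cells of 6 of 34 and 22 of 26 lineages. Bcl2l1 alone made up a median of 62.7% of that sum in an L1210 cell, and Bax a median of 40.04% in a CD8+ T-cell. The sums are in TPM, in which abundant transcripts such as Bax and Bcl2l1 weigh most, and they carry no test because the members define them. Other genes of the family are not in them. Among those left out are the survival genes Bcl2a1b and Bcl2a1d, higher in CD8+ T-cells, and Bok, higher in L1210 cells.

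**Figure D3:**
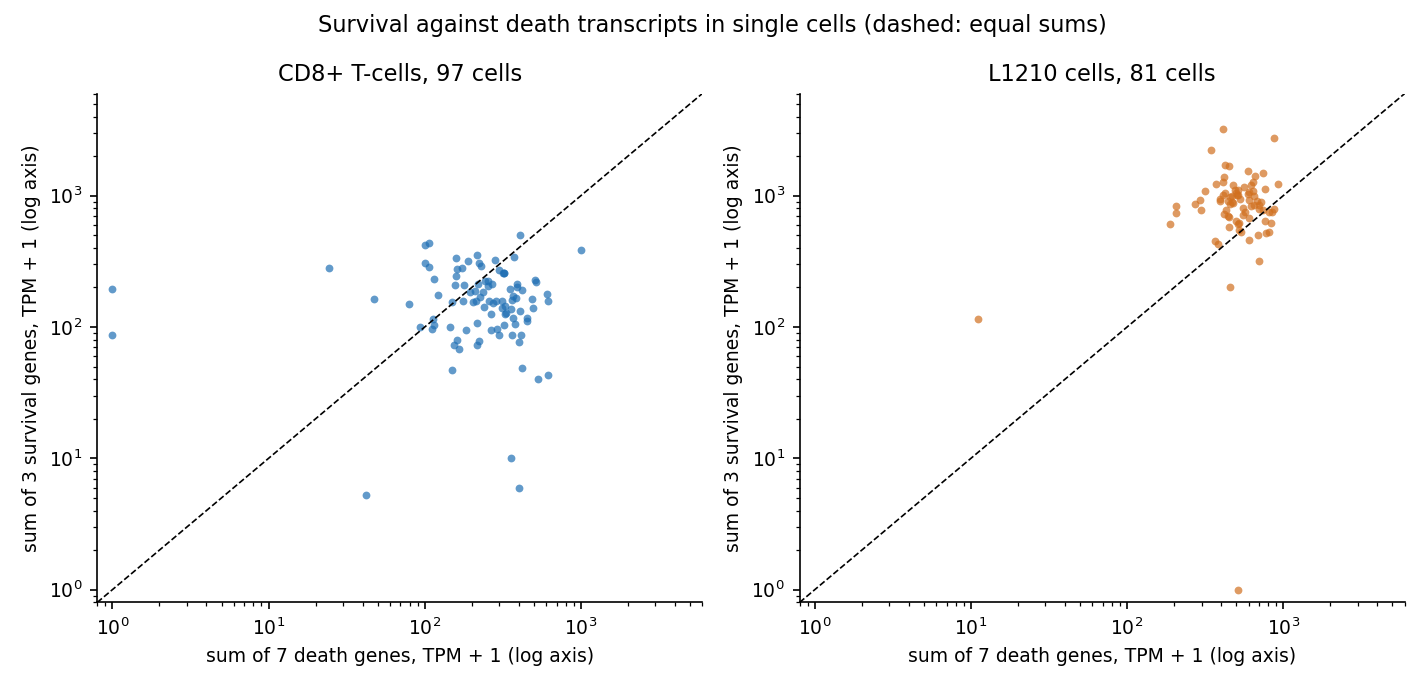
Sum of the 3 survival genes against the sum of the 7 death genes in each cell, both as TPM + 1 on log axes, with 97 CD8+ T-cells on the left and 81 L1210 cells on the right. The dashed line marks equal sums, and 26 of the CD8+ T-cells but 68 of the L1210 cells lie above it.

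To ask whether related cells share their level of a member, the variance of log2(TPM + 1) was divided into parts between and within lineages. This used the 27 lineages of CD8+ T-cells and 24 lineages of L1210 cells with 2 or more cells (90 and 79 cells). The share between lineages is 0% when relatives are no more alike than other cells, and it can be negative when they are less alike. Cells of a lineage also shared the mouse or culture of their founder and the run of the device, none of which is labelled. Descent cannot be told apart from these in the share. In CD8+ T-cells it was highest for Bcl2l1, Bcl2 and Bcl2l11, and Bcl2l1, Bcl2 and Bax passed the test. In L1210 cells it was highest for Bax, and Bax and Bid passed the test.

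Bcl2l1 had a share of 43.7% between lineages of CD8+ T-cells (limma F-test, adjusted p = 0.000587) and passed in all 12 alternative fits, with shares of 31.5 to 48.8% and adjusted p values up to 0.0161. Among the 16 lineages of 4 cells the highest mean was that of CD8 lineage 10, with 114, 121, 122 and 138 TPM. The lowest was that of CD8 lineage 1, with 0, 0, 10.3 and 15.7 TPM. These lineages were picked by the same values, so the gap between them is no test. High and low cells also occurred side by side, as in CD8 lineage 11 with 25.3, 110, 135 and 368 TPM. The number of detected genes moved with these values. Over the 27 lineages the mean of Bcl2l1 and the mean number of detected genes had a Spearman correlation of 0.67, and the share of Bcl2l1 was lower but still past the test with that number in the fit (adjusted p = 0.0161).

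Bcl2 had a share of 33.4% in CD8+ T-cells (limma F-test, adjusted p = 0.0285). Among the lineages of 4 cells the lowest was CD8 lineage 29, the one without Cd8a, with 5.19, 5.79, 31.4 and 33.9 TPM, and the highest was CD8 lineage 18, with 116, 154, 167 and 225 TPM. The call rested on CD8 lineage 29, since without it the share was 26.1% (adjusted p = 0.111). It was also lost with the time since division in the fit (25.7%, adjusted p = 0.108), and it held in 8 of 12 alternatives in all. Bax had a share of 25.5% (limma F-test, adjusted p = 0.0348). Among the lineages of 4 cells its lowest mean was that of CD8 lineage 19, with 0, 44.99, 71.02 and 123 TPM. The highest was that of CD8 lineage 13, with 202, 316, 481 and 582 TPM. The adjusted p of Bax ran from 0.000322 to 0.12 over 12 alternatives and was above 0.05 in 4 of them.

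Thus 3 of the 10 members passed in CD8+ T-cells, where 12.9% of all 9995 genes did. The median share of the members was 22.3%, and that of all genes was 9.02%. The next members were Bcl2l11 at 26.1% (adjusted p = 0.0535), Bak1 at 25.4% (adjusted p = 0.0745) and Bid at 19.3% (adjusted p = 0.0781), none of which passed. Bad was at 14.4%, Pmaip1 at 3.78%, Bbc3 at -4.81% and Mcl1 at -15.5% (limma F-test, adjusted p = 0.975), the lowest of the family.

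**Figure D4:**
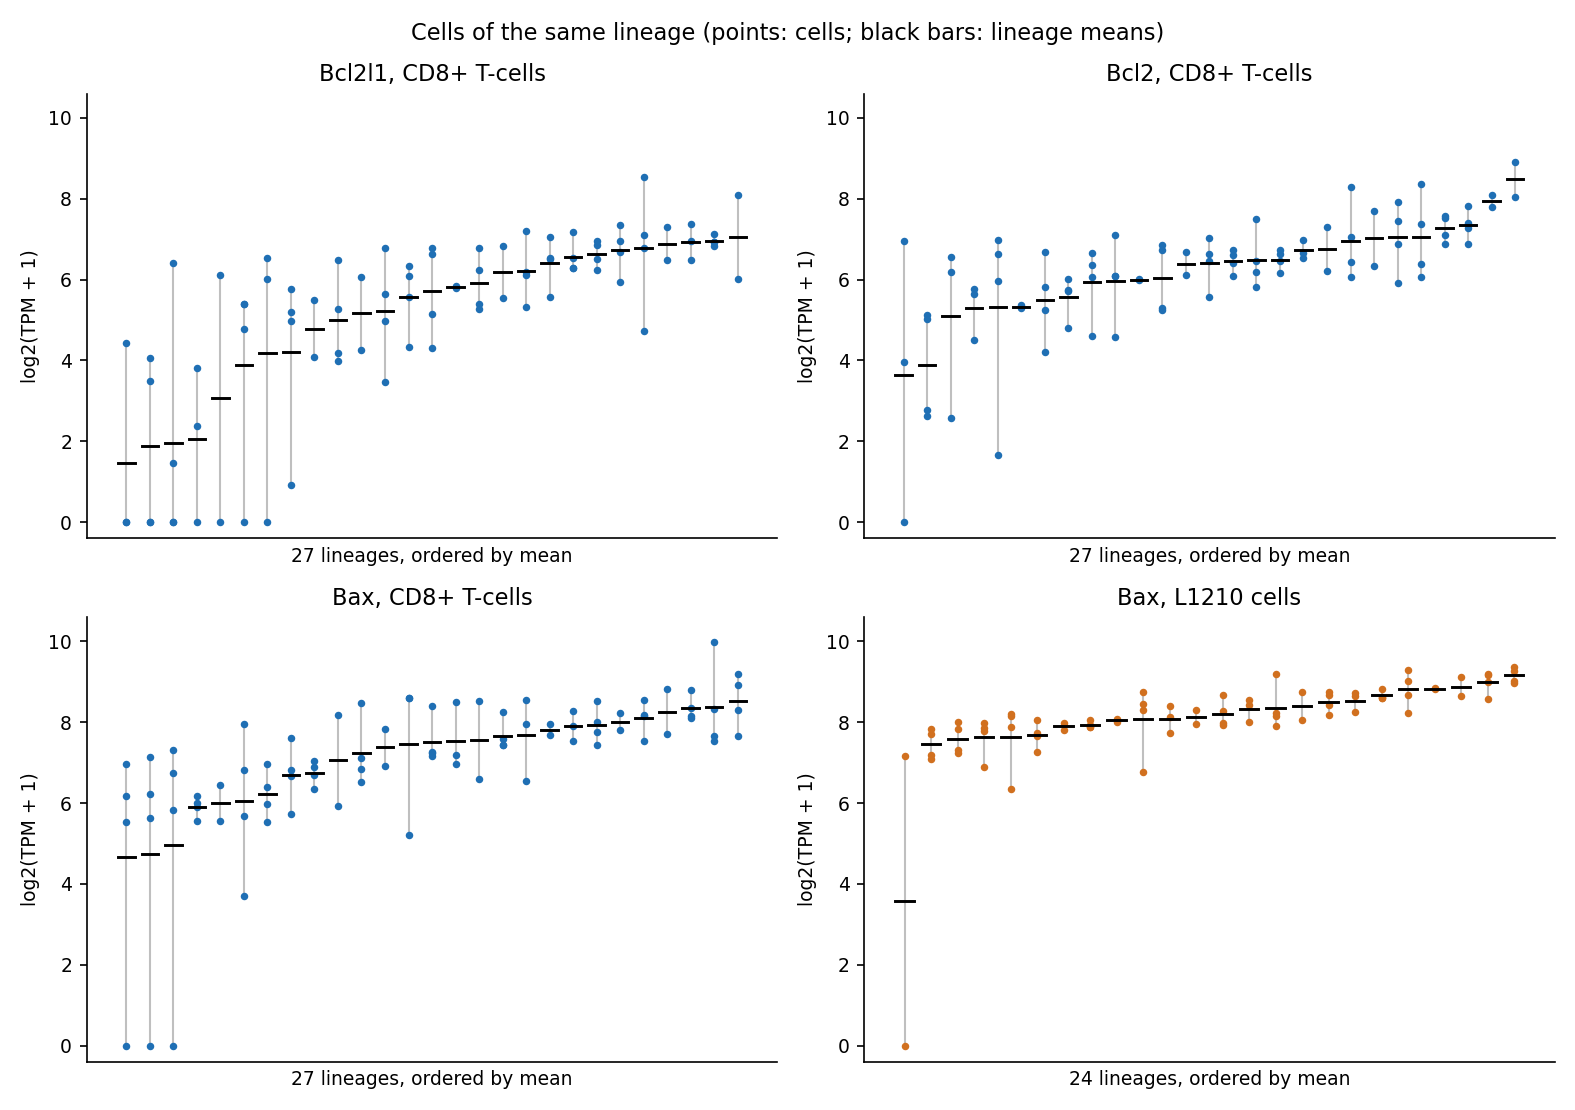
Single cells by lineage, ordered by the lineage mean, for Bcl2l1, Bcl2 and Bax in 27 lineages of CD8+ T-cells and for Bax in 24 lineages of L1210 cells. Points are cells on the log2(TPM + 1) scale, grey lines span each lineage and black bars are lineage means. The share of variance between lineages was 43.7%, 33.4%, 25.5% and 48.7% in the 4 panels, and the lowest L1210 lineage is that of L1210_8, whose Bax was 0.

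In L1210 cells Bax had the highest share of the family, 48.7% (limma F-test, adjusted p = 0.000658), and passed in all 13 alternative fits, with shares of 43.97 to 66.2%. Among the 14 lineages of 4 cells the highest mean was that of L1210 lineage 13, with 502, 520, 618 and 656 TPM. The lowest was that of L1210 lineage 11, with 135, 146, 209 and 226 TPM. These lineages were picked by the same values, so the gap between them is no test. Without L1210_8, a cell at 0 TPM of Bax, the share was 52.3% (adjusted p = 0.00779). Sisters were within a factor of 2 of each other in Bax in 35 of 38 pairs, with a median ratio of 1.28. Closeness of sisters was not particular to Bax. For Bcl2l1 and Bak1, which did not pass between lineages, it held in 31 and 30 of 38 pairs, with median ratios of 1.32 and 1.29.

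Bid had a share of 27.2% (limma F-test, adjusted p = 0.0384), and this call rested on the poorest libraries. Without L1210_15 the share was 23% (adjusted p = 0.0709), without L1210_8 it was 7.32% (adjusted p = 0.399), and among cells with 4000 or more detected genes it was -7.59% (adjusted p = 0.796). In those cells Bcl2l11 passed instead, with 34.9% against 16.5% in all cells (adjusted p = 0.0396 and 0.283). Shares of the others among all cells were 21.4% for Bak1, 13.4% for Bcl2, 9.94% for Bbc3, 9.43% for Bcl2l1, 4.78% for Mcl1 and -11.3% for Bad. Thus 2 of 9 members passed, where 13.5% of 10534 genes did, and without L1210_8 only 506 in place of 1417 genes passed. The median share was 13.4% for the members and 10.9% for all genes.

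**Figure D5:**
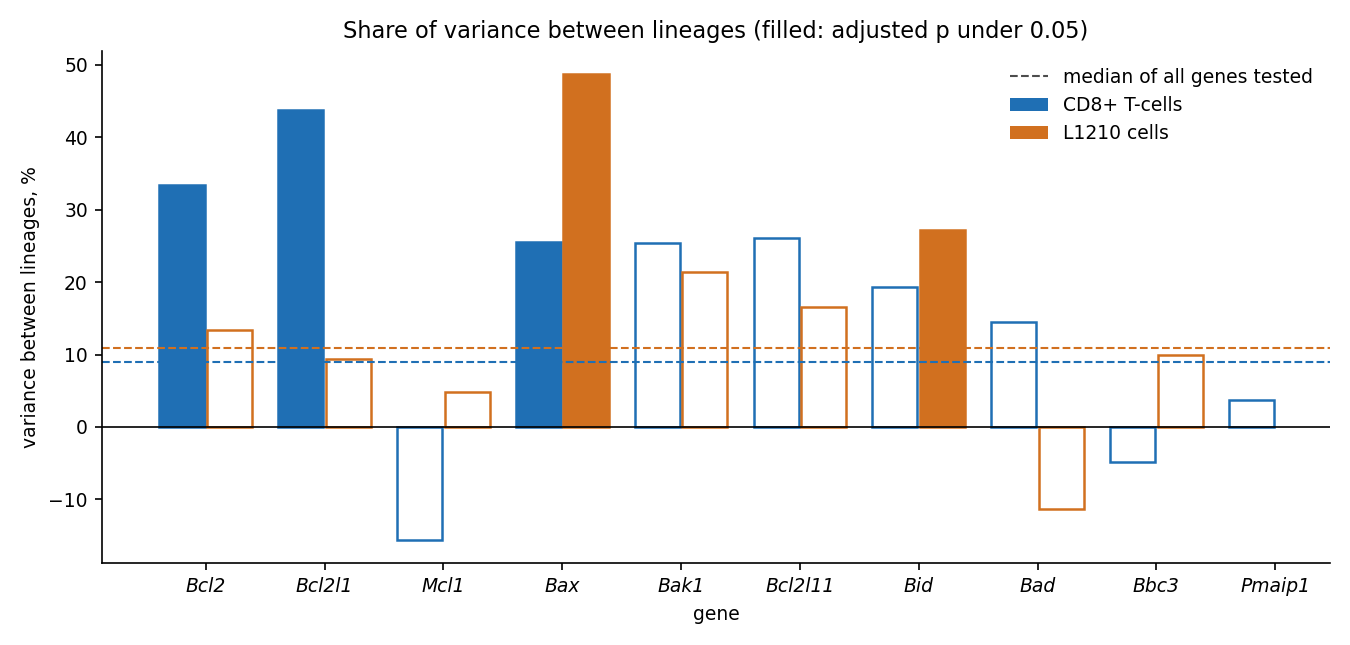
Share of the variance of log2(TPM + 1) that lies between lineages, in percent, for CD8+ T-cells (blue) and L1210 cells (orange), filled where the adjusted p was under 0.05. Dashed lines are the medians of all genes, 9.02% and 10.9%. Bcl2l1, Bcl2 and Bax are filled in CD8+ T-cells, Bax and Bid in L1210 cells, and Pmaip1 was not tested in L1210 cells.

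Sisters and cousins were also compared pair by pair. Unrelated CD8+ T-cells differed in Bcl2l1 by 2.30 on the log2 scale on average (4541 pairs), sisters by 1.82 (43 pairs) and cousins by 1.49 (72 pairs). For Bcl2 these mean differences were 1.46 (unrelated), 0.99 (sisters) and 1.2 (cousins), and for Mcl1 they were 1.82, 2.11 and 2.05, so that the mean difference of relatives in Mcl1 was not below that of unrelated cells. In L1210 cells unrelated cells differed in Bax by 0.90 (3140 pairs), sisters by 0.64 (38 pairs) and cousins by 0.45 (62 pairs). Pairs share cells and libraries, and the values carry no test.

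Detection itself varied between sisters. Both sisters were above 0 TPM for Bcl2 in 42 of 43 pairs of CD8+ T-cells, but for Bcl2l11 in 16, with 1 sister only in 19 pairs and neither in 8. For Pmaip1 only 1 of the sisters was above 0 in 14 pairs, both were in 3 and neither in 26. In L1210 cells both sisters were above 0 for Bcl2l11 in all 38 pairs and for Bcl2l1 in 37, whereas for Bcl2 both were in 9 pairs, 1 in 11 and neither in 18. A single cell gives few copies of a rare transcript, and the deposited TPM do not keep the number of reads, so how much of the scatter of the rare members is sampling was not tested.

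Members also varied together over lineage means. In CD8+ T-cells (27 lineages) the highest Spearman correlation was that of Bcl2l1 with Bak1 (0.64) and the lowest those of Bcl2 with Bid (-0.50) and with Bax (-0.45). In L1210 cells (24 lineages) they ranged from 0.47 for Bcl2l1 with Bad to -0.37 for Bcl2l1 with Bax, a pair whose Pearson correlation had the other sign (0.22). The genes most like Bcl2l1 over the 27 lineages of CD8+ T-cells were Ipo11 (Spearman correlation 0.83), Stt3a (0.81) and Nek6 (0.81), out of 9994 genes. Those most like Bax over the 24 L1210 lineages were Esd (0.84), Cyb5 (0.73) and Ftl1 (0.71), out of 10533. The points share libraries and their number of detected genes, and these correlations are descriptions of the data.

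Time since division, the measure of cell cycle progress in this study, was recorded for 94 CD8+ T-cells (0.5 to 9.47 h, 31 lineages) and for all 81 L1210 cells (0.354 to 12.8 h, 26 lineages). No member passed the test for a slope of its lineage mean on time. In CD8+ T-cells 9 of 9995 genes passed (0.09%), and 1294 had an unadjusted p under 0.05. In L1210 cells 0 of 10534 passed (0.0%), with 588 at an unadjusted p under 0.05. The steepest slopes of the family were found in CD8+ T-cells, for Bak1 with -0.25 ± 0.10 per hour on the log2 scale (SE, limma, p = 0.0143, adjusted p = 0.274), for Bcl2l1 with -0.23 ± 0.12 (p = 0.0596, adjusted p = 0.408) and for Bcl2 with -0.21 ± 0.08 (p = 0.0114, adjusted p = 0.264). In L1210 cells all 9 slopes lay between -0.07 and 0.03 per hour, with SE of 0.04 to 0.07. The slopes of the 2 cell types did not differ past the threshold for any member (limma interaction, lowest adjusted p = 0.359, for Bcl2), and 1 of 10808 genes passed (0.00925%).

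The other genes of the family and of the pathways around it were described from lists. Of 14 other family members, 7 were tested, and 3 were higher in CD8+ T-cells and 3 were lower, beside 12.8% and 50.5% of all genes. The survival genes Bcl2a1b and Bcl2a1d, near-identical copies between which short reads can be split, were detected in 57 and 46 CD8+ T-cells and in 2 and 1 L1210 cells, and were higher in CD8+ T-cells by 3.43 ± 0.40 and 2.29 ± 0.39 on the log2 scale (SE, limma, adjusted p = 1.99e-11 and 8.68e-07). Bok, a relative of the effectors, went the other way by -5.49 ± 0.26 (SE, limma, adjusted p = 2.29e-30). It had a median of 68.9 TPM in L1210 cells and was above 0 in 2 CD8+ T-cells. Bcl2l15 also was higher in L1210 cells, with a difference of -3.14 ± 0.25 (SE, limma, adjusted p = 4.74e-18).

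Downstream of the mitochondrion, 15 genes of the caspase pathway were tested, of which 1 was higher in CD8+ T-cells and 7 were lower, a share of lower genes near the 50.5% of all genes, with a median difference of -0.68. Endog, a mitochondrial nuclease, differed by -2.61 ± 0.36 on the log2 scale, the initiator caspase Casp9 by -1.62 ± 0.28 and Apaf1, which assembles the apoptosome, by -1.53 ± 0.28 (SE, limma, adjusted p = 3.36e-09, 1.18e-06 and 3.61e-06). Of 10 genes of the death receptor pathway, 4 were higher in CD8+ T-cells (12.8% of all genes) and 2 were lower (50.5% of all genes), with a median difference of 0.23. The receptor Tnfrsf1a was detected in 64 CD8+ T-cells (median 10.49 TPM), and Fasl, the ligand of Fas, in 35 of them, up to 256 TPM, and both were listed at 0 in every L1210 cell (limma, adjusted p = 3.73e-13 and 5.16e-05). The receptor Tnfrsf1b was higher in CD8+ T-cells by 1.44 ± 0.39 on the log2 scale, and Cflar, the inhibitor of caspase-8, differed by -1.34 ± 0.30 (SE, limma, adjusted p = 0.00102 and 7.8e-05). Of 7 regulators of the members, 3 were higher in L1210 cells (50.5% of all genes) and 0 in CD8+ T-cells (12.8%), with a median difference of -0.49. They were Mdm2, which restrains p53 (-1.61 ± 0.37), Usp9x, which removes ubiquitin from MCL1 (-1.30 ± 0.28), and Huwe1, which attaches it (-0.75 ± 0.25), with adjusted p values of 0.000124, 6.79e-05 and 0.00751 in limma. Trp53 itself had medians of 248 and 241 TPM and did not pass.

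With the number of detected genes in the fit, the genes higher and lower in CD8+ T-cells were 3 and 3 for the other family members, 2 and 4 for the caspase pathway, 5 and 1 for death receptors and 1 and 2 for the regulators. Over all genes 18.1% were higher and 31.5% lower in that fit. Among the genes named from these lists, Huwe1 did not pass there (limma, adjusted p = 0.224), and Trp53 passed there as higher in CD8+ T-cells, by 0.58 (adjusted p = 0.0459), against -0.08 (adjusted p = 0.811) without that term.

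In the test between lineages 3 of 37 tested genes of these lists passed in CD8+ T-cells, where 12.9% of all genes did. They were Bcl2a1d (25.2%), the executioner Casp6 (28.7%) and Fasl (29.3%), and each passed without CD8 lineage 29 as well. In L1210 cells 4 of 33 passed, where 13.5% of all genes did. Cflar passed with 37.9%, and with 43.1% when L1210_8 was left out (limma F-test, adjusted p = 0.0217 and 0.0205), but not with the number of detected genes in the fit (28.5%, adjusted p = 0.149). The protease Htra2 (38.6%) and Endog passed with all cells, but their adjusted p values were 0.106 and 0.133 without L1210_8 (limma F-test). No tested gene of these 4 lists passed the test for time since division in either cell type.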

How the data were processed

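Libraries were made from single cells by Smart-Seq2 and sequenced as short paired-end reads. The authors estimated expression with RSEM 1.2.3 against UCSC gene models (mm10) and deposited TPM, not log-transformed, for 194 libraries. TPM keep no depth, so intervals for single values could not be given. The number of genes above 0 TPM is used in its place, though it is not depth itself and also differed between the cell types. The members and lists were chosen with earlier results of these data known. All 10 members are named, and of each other list at most 4 genes, those of largest difference among the genes that passed.

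Values were analysed as log2(TPM + 1), which understates changes of rare transcripts, for genes with ln(TPM + 1) above 1 in more than 10% of the cells tested. Names found in more than 1 row (2 names) were not fitted. limma 3.58.1 (R 4.3.3) was used with a mean-variance trend, 2-sided tests and Benjamini-Hochberg adjustment over all genes, on lineage means for cell type and time, and on cells for the F-test between lineages. The share between lineages is the intraclass correlation from the same sums of squares. Lineages were built from sisters and cousins that name each other, and 3 cousin labels that were not returned were not used. The scripts were tested on simulated data. Tables used Python 3.11.15. Gene positions come from GENCODE annotation of GRCm38, and promoter windows from RefSeq for 9 of the 10 members. Protein sequences were not analysed here, and some genes of the lists are not reported here. Alternatives were other pseudocounts, filters, scalings, covariates, weights and sets of cells. The fits without CD8 lineage 29, those without L1210_8 and all alternatives for the difference of slopes were chosen after seeing the data.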

Additional observations from a re-analysis of the deposited data

How the results depend on the processing

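Over all alternatives, 632 of 668 values of single members kept their side of the threshold and, for differences and slopes, their direction, 19 fell short of a threshold they had passed, 10 passed it anew and 7 differences or slopes changed sign. Shares between lineages, which have no direction, crossed 0 in 7 of the values, none of them past the threshold there. Of the 9 members tested between the cell types, 8 passed, beside 63.4% of all genes. With the number of detected genes in the fit 5 passed, beside 18.1% of all genes as higher in CD8+ T-cells and 31.5% as lower. Mcl1, Bax and Bid did not pass there, and Bad was at 0.0306 (limma, adjusted p = 0.952). In that fit 36.5% of the calls over all genes were towards CD8+ T-cells, against 20.3% before. Bad passed in 3 alternatives, by -0.98 with lineages weighted by cells, by -0.90 with the lineage as a random effect and by -0.86 in lineages of 2 or more cells. In CD8+ T-cells 3 members passed between lineages, 1 with a pseudocount of 0.1 TPM and 5 with ranks, and in L1210 cells 2 passed, but only 1 with a pseudocount of 10 TPM, scaling by the median ratio, the number of detected genes in the fit, lineages of 3 or 4 cells, without L1210_15 or without L1210_8. Over all genes the calls between lineages rose from 1289 to 2196 with ranks in CD8+ T-cells. In L1210 cells they went from 1417 to 2176 with no filter, 674 in cells with 4000 or more genes, 510 with the number of detected genes in the fit and 519 in lineages of 3 or 4 cells. Slopes that changed sign were near 0 and never passed, -0.0241 and -0.0222 for Bcl2l1 in L1210 cells weighted by cells and with a random effect, 0.0021 and 0.0015 for Bax in L1210 cells with 4000 or more genes and without L1210_8, and, for the difference of slopes, 0.0003 for Bcl2l11 with a pseudocount of 10 TPM and 0.0034 for Bad in cells with 4000 or more genes. The calls of time in CD8+ T-cells ranged from 3 to 25 genes and held no member in any fit. No paired analysis was possible because the shared numbers in the labels only name cells and link no CD8+ T-cell to an L1210 cell. Without read counts, absence of a rare member in 1 cell is not shown.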

Other observations

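Some libraries entered no comparison. The 4 CD8+ T-cell libraries marked as doublets had 4710 to 6966 genes above 0 TPM, Bcl2 between 58.6 and 294 TPM and Bcl2l1 between 10.6 and 60.04 TPM. The 2 L1210 doublets had 1823 and 5170 genes, Bcl2 up to 2.00 TPM and Bcl2l1 between 22.2 and 244 TPM. Among the 5 CD8+ T-cell libraries with fewer than 1000 genes (12 to 714), Bcl2, Bcl2l1 and Bcl2l11 were listed at 0 in each and Bax was above 0 in 1, at 567 TPM. Among the 5 such L1210 libraries (12 to 801 genes), Bcl2l1 was above 0 in 1, at 2474 TPM, and Bcl2l11 in 2, up to 478 TPM.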
